A study of Homo sapiens with 9 samples.

Results

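Cytosolic carbonic anhydrases 1, 2 and 3 (CA1, CA2 and CA3) are encoded side by side on human chromosome 8, and their transcript start-end isoforms were followed in K562 cells with and without imatinib. The members are these 3 genes, of 22384 Gencode v44 genes with at least 1 read pair in the 4 libraries. A read pair was given to a gene when both of its ends lay on the strand of the gene and within 1 kb of the annotated body. In all, 953 read pairs fell to CA1, 39 to CA3 and 18 to CA2. CA1 rose after imatinib from a mean of 3.03 to 151 CPM (counts per 1000000 read pairs of the library, scaled with TMM factors), CA3 rose from 0.481 to 4.99, and CA2 was counted too rarely for the test, at 1.64 and 0.776.

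K562 is a leukaemia line that carries the BCR-ABL1 fusion kinase, and imatinib inhibits the ABL kinase. The TIF_DMSO group held 2 libraries of cells given the solvent DMSO alone, and the TIF_Imatinib group held 2 libraries of cells given 1 µM imatinib, both for 24 h. According to the methods of the study the 2 libraries of a group are biological replicates, all of the same cell line, so they do not speak for other cells. TIF-Seq2 joins the capped 5′ end and the polyadenylated 3′ end of each RNA molecule in 1 read pair, so a count is a number of captured molecules and was not divided by transcript length. Whether capture depends on length was not tested, so levels compared between genes are levels of captured molecules. The libraries held from 2263121 to 5135829 read pairs.

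Carbonic anhydrases are zinc enzymes that interconvert carbon dioxide and bicarbonate. CA1 and CA2 are abundant in red blood cells, where they serve carbon dioxide transport, CA2 being the faster enzyme and present in many other tissues, while CA3 is best known from skeletal muscle and has low activity. CA1 is the textbook case of a carbonic anhydrase with alternative promoters, a distal one used in erythroid cells and a proximal one, close to the coding sequence, used in colon epithelium.

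The genes span 153886 bp in the order CA1, CA3, CA2. In hg38 coordinates CA1 (ENSG00000133742.14) covers chr8:85327608-85379014 on the minus strand. CA3 (ENSG00000164879.7) covers chr8:85373436-85449040 and CA2 (ENSG00000104267.10) chr8:85463968-85481493, both on the plus strand. The annotated bodies of CA1 and CA3 overlap on opposite strands because 1 long CA3 model starts at position 85373436. No read pair started within 20 bp of that position. Measured from the most used starts, CA1 and CA3 pointed away from each other across 60745 bp, and the most used CA3 end lay 14971 bp before the most used CA2 start.

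CA1 gave 11 read pairs in DMSO 1, 15 in DMSO 2, 496 in imatinib 1 and 431 in imatinib 2. Scaled to library size, these were 3.18, 2.88, 110 and 192 CPM. Both imatinib libraries lay far above both DMSO libraries, and the 2 imatinib libraries differed more from each other than the 2 DMSO libraries did. The group means were 3.03 ± 0.207 (SD, n = 2) and 151 ± 57.9 (SD, n = 2). CA1 was higher by 5.62 on the log2 scale (SE 0.424, adjusted p = 0.000895, edgeR quasi-likelihood test with Benjamini-Hochberg adjustment over 12135 genes). By this fold change CA1 ranked 34 of the 12135 genes tested. As in any bulk RNA measurement, more cells that express the gene and more RNA per cell cannot be told apart.

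CA3 gave 2, 2, 25 and 10 read pairs in DMSO 1, DMSO 2, imatinib 1 and imatinib 2. These were 0.578, 0.385, 5.53 and 4.45 CPM. The groups did not overlap, although the DMSO values rested on 4 molecules. How many of all genes separate in this way was not counted. CA3 was higher by 3.36 on the log2 scale (SE 0.598, adjusted p = 0.00869, edgeR quasi-likelihood test), at rank 152. Without the library DMSO 2 the adjusted p of CA3 was 0.0844 by the same test (log2 fold change 3.04), and without imatinib 1 the gene did not pass the filter on low counts. Both members tested were higher, and of all genes tested 8.69% were called higher and 6.15% lower. CA3 passed the filter on low counts only through the imatinib libraries, so its entry to the test depended on being high there. The count of members called is therefore not read as a result about the 3 genes.

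CA2 gave 8, 5, 3 and 2 read pairs in the same order of libraries, or 2.31, 0.961, 0.663 and 0.889 CPM. The DMSO values lay above the imatinib values, by a narrow margin for DMSO 2. CA2 did not pass the filter on low counts. In a fit without that filter its log2 fold change was −1.11 (SE 0.929, adjusted p = 0.565, edgeR quasi-likelihood test over 22384 genes, of which 6.3% were called higher and 5.92% lower). The ratio of imatinib to DMSO over the summed counts was 0.492, with an exact 95% interval from 0.137 to 1.47 that covers counting error only. At this depth neither a severalfold fall nor a slight rise of CA2 could be told from no change.

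**Figure D1:**
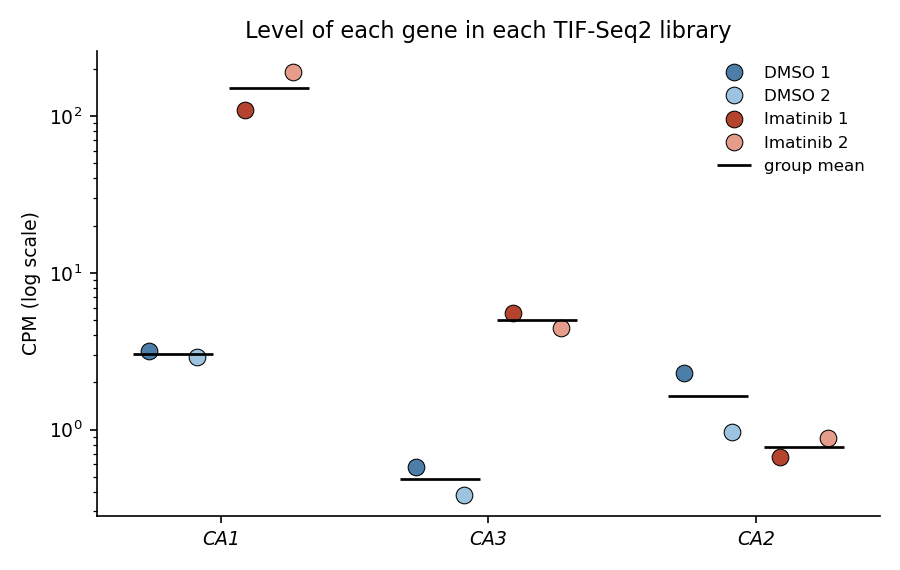
Level of CA1, CA3 and CA2 in each library, in CPM on a log scale. Points are the 4 libraries and bars the means of 2 libraries. CA1 went from 3.03 to 151 and CA3 from 0.481 to 4.99, whereas all 4 CA2 values lay between 0.663 and 2.31.

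The order of the genes by level differed between the treatments. In DMSO the order was CA1, CA2, CA3, and the lowest CA1 library (2.88) lay above the highest CA2 library (2.31), whose gene in turn had its lowest library (0.961) above the highest CA3 library (0.578). After imatinib the order was CA1, CA3, CA2, with the lowest CA3 library (4.45) above the highest CA2 library (0.889). CA1 made up 52.4% of the read pairs of the 3 genes in DMSO 1 (11 of 21, 95% Wilson interval 32.4% to 71.7%) and 68.2% in DMSO 2 (15 of 22, 47.3% to 83.6%). In imatinib 1 it made up 94.7% (496 of 524, 92.4% to 96.3%) and in imatinib 2 97.3% (431 of 443, 95.3% to 98.4%). CA2 made up 38.1% (20.8% to 59.1%) and 22.7% (10.1% to 43.4%) in the DMSO libraries and 0.573% and 0.451% in the imatinib libraries. The shares add up to the whole, so the rise of CA1 lowers the share of CA2 by itself. CA3 made up 9.52% (2.65% to 28.9%) and 9.09% (2.53% to 27.8%) in the DMSO libraries. The intervals of CA1 and CA2 overlapped in DMSO 1, and those of CA2 and CA3 in both DMSO libraries, so the order in DMSO is not firm. These intervals cover counting error only. With 2 libraries against 2, the two-sided exact permutation test cannot go below p = 0.333, which is the value each of these shares gave.

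**Figure D2:**
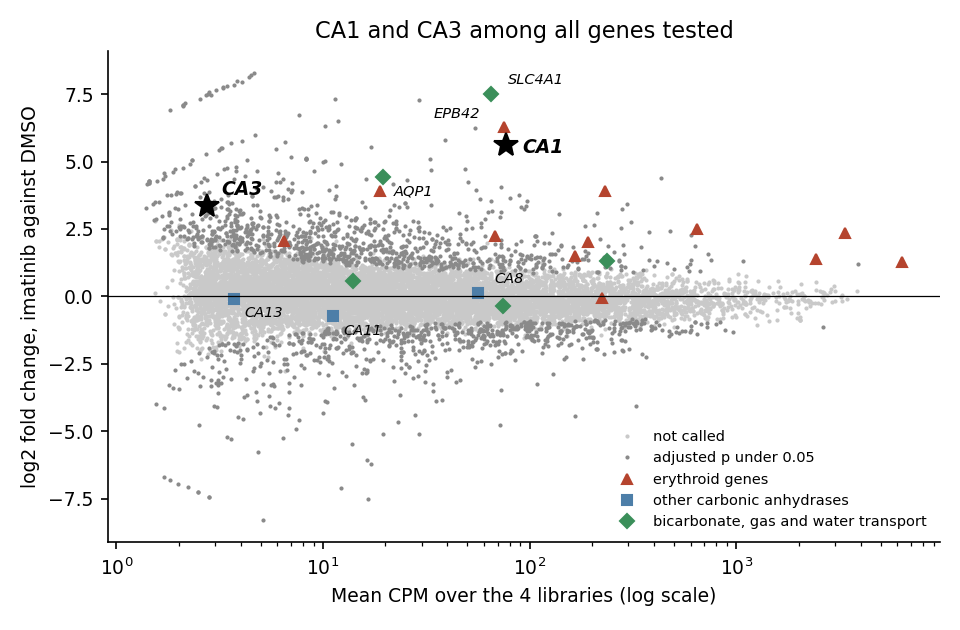
Log2 fold change after imatinib against the mean level over the 4 libraries (CPM, log scale) for the 12135 genes tested. Stars mark CA1 (5.62) and CA3 (3.36), squares the other carbonic anhydrases tested, diamonds the genes of bicarbonate, gas and water transport and triangles the erythroid genes. CA8, CA11 and CA13 lie between −0.74 and 0.13.

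Read pairs of CA1 formed 198 different combinations of a start and an end position, from 110 start and 27 end positions. Of these combinations, 123 were seen in a single molecule and the commonest in 199. That combination ran from position 85378113, the annotated start of the MANE Select transcript (the reference isoform of the gene), to position 85328229 and spanned 49885 bp. It was seen 2, 0, 105 and 92 times in DMSO 1, DMSO 2, imatinib 1 and imatinib 2. Of the 21 combinations seen in DMSO, 20 were also seen after imatinib.

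The starts of CA1 were divided by their distance to the start codon, which lies in the second exon, 36478 bp downstream of the annotated first exon start and beyond a first intron of 36386 bp. A start over 10 kb upstream of the start codon was called distal, one within 10 kb upstream proximal, and one downstream of it internal. Distal starts made up 9 of 11 read pairs in DMSO 1, 14 of 15 in DMSO 2, 453 of 496 in imatinib 1 and 404 of 431 in imatinib 2. The shares were 81.8% (95% Wilson interval 52.3% to 94.9%), 93.3% (70.2% to 98.8%), 91.3% (88.5% to 93.5%) and 93.7% (91.0% to 95.7%). The distal region was thus the main start region of CA1 in every library, and the DMSO values enclosed the value of imatinib 1. The mean share was 87.6% ± 8.14 (SD, n = 2) in DMSO and 92.5% ± 1.70 (SD, n = 2) after imatinib, a difference of 4.96 points within the spread between the DMSO libraries (two-sided exact permutation test, p = 0.667). Without DMSO 1 the difference was −0.800 points.

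Proximal starts were rare. They numbered 0 of 11 in DMSO 1 and 0 of 15 in DMSO 2. With 3 read pairs taken as a rough upper limit for a count of 0, these allow shares of up to 27.3% and 20.0%. After imatinib proximal starts numbered 7 of 496 (1.41%, 95% Wilson interval 0.685% to 2.88%) and 2 of 431 (0.464%, 0.127% to 1.68%). Of the 9 proximal read pairs, 8 started inside the second exon of the MANE Select transcript, where 1 annotated transcript also has its start (position 85341659). The 8 read pairs within 20 bp of that position came from imatinib 1 (6) and imatinib 2 (2). No read pair started within 20 bp of the annotated CA1 starts at 85349901, 85342843, 85342825, 85342800, 85341714 or 85379014. Thus the only proximal starts seen more than once lay at the boundary of the second exon, and whether they are capped ends of their own was not tested.

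Internal starts numbered 2, 1, 36 and 25. Of these 64 read pairs, 59 (92.2%, 95% Wilson interval 83.0% to 96.6%) began inside an exon of the MANE Select transcript, although exons make up 12.4% of the stretch from the start codon to the annotated gene end. The last exon held 24 of them and the third exon 18. Of the 64, 62 ended at the main end site, 1 at 85328456 and 1 at 85330094.

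**Figure D3:**
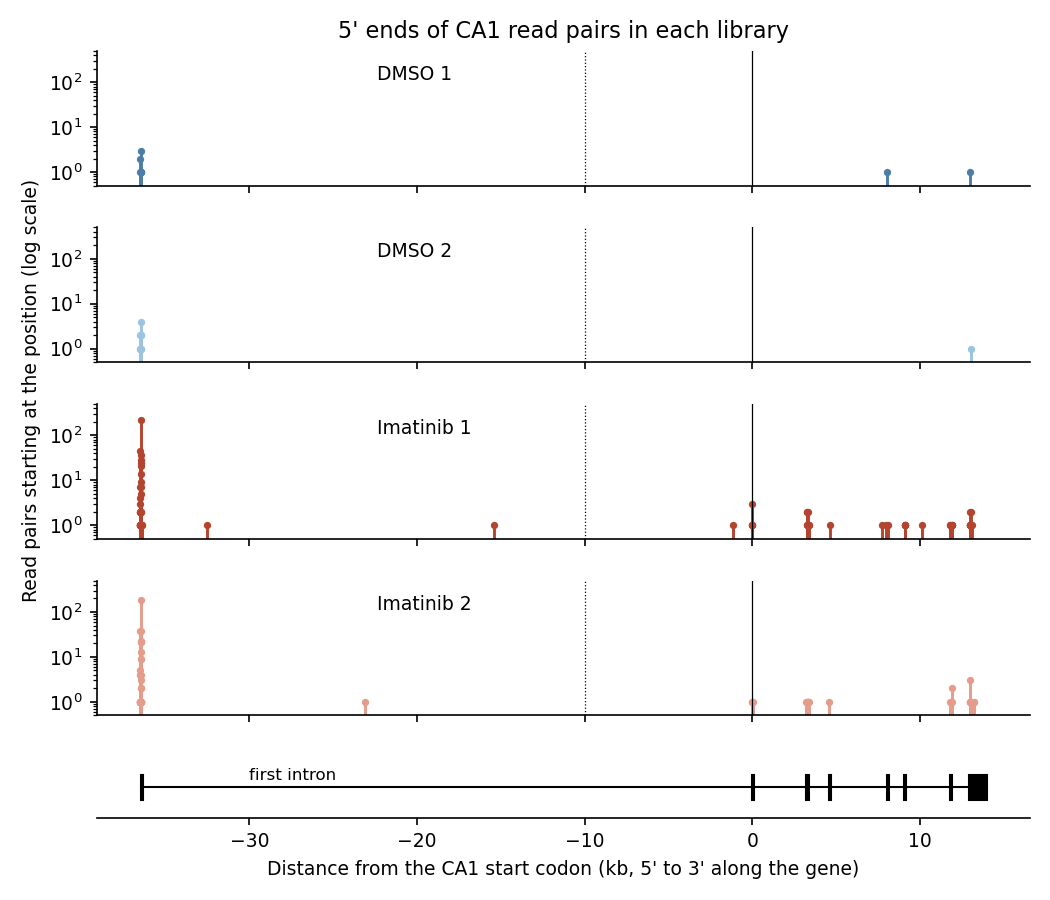
5′ ends of CA1 read pairs in each library against their distance from the CA1 start codon (kb, negative upstream), with the number of read pairs on a log scale and the exons of the MANE Select transcript below. The dotted line marks the limit of 10 kb between distal and proximal starts and the solid line the start codon. The distal group held 9, 14, 453 and 404 read pairs, and most of the others lie on exons.

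When all starts of all genes were tested for a change that differs from that of the gene as a whole, none of the CA1 starts was called. For the distal class the natural-log fold change relative to all tested CA1 classes together was 0.06 (adjusted p = 1.00, edgeR diffSpliceDGE with Benjamini-Hochberg adjustment). Distal starts make up most of that total, so a value near 0 follows from the measure itself. Of all start classes 0.0818% were called. For the internal class the same measure was −0.69 (adjusted p = 1.00, same test), and the proximal class did not pass the filter on low counts. Distal and internal starts therefore gave no detectable difference in response, with only 3 internal molecules in DMSO. Proximal starts had 0 molecules in DMSO, so this test gave no comparison of distal with proximal starts.

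Of the 880 distal read pairs, 877 started at 48 positions from 72 bp upstream to 52 bp downstream of the annotated start, and the other 3 started 3957, 13358 and 21069 bp downstream. Position 85378113 itself was used by 3 of the 9 read pairs within 100 bp in DMSO 1, 4 of 14 in DMSO 2, 219 of 451 in imatinib 1 and 189 of 403 in imatinib 2. A second group of starts lay over 10 bp upstream, mainly at positions 85378142 and 85378129, which are 29 and 16 bp upstream. This upstream group took 44.4% (95% Wilson interval 18.9% to 73.3%) and 42.9% (21.4% to 67.4%) of the read pairs within 100 bp in the DMSO libraries. It took 23.5% (19.8% to 27.6%) and 20.8% (17.2% to 25.1%) in the imatinib libraries. The group shares did not overlap, but the counting intervals of the libraries did, and the exact permutation p was the smallest possible, 0.333. The split at 10 bp was not among the planned comparisons. How many genes separate in this way was not counted.

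The same starts were also counted as clusters, in which neighbouring positions with sufficient tags were joined. The cluster at 85378113 (chr8:85378104-85378115) held 4, 7, 321 and 293 read pairs in DMSO 1, DMSO 2, imatinib 1 and imatinib 2. The cluster at 85378129 held 1, 2, 29 and 22 and the cluster at 85378142 held 2, 2, 45 and 38. All 3 clusters had the tags needed to form only in the imatinib libraries, so their higher counts there follow in part from how they were built. Relative to all tested CA1 starts together, the natural-log fold changes of the 3 clusters were 0.29 (adjusted p = 1.00), −1.01 (adjusted p = 0.822) and −0.78 (adjusted p = 0.897) by edgeR diffSpliceDGE. None of the 3 was called, none had an unadjusted p under 0.05, and 3.56% of all start clusters were called.

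**Figure D4:**
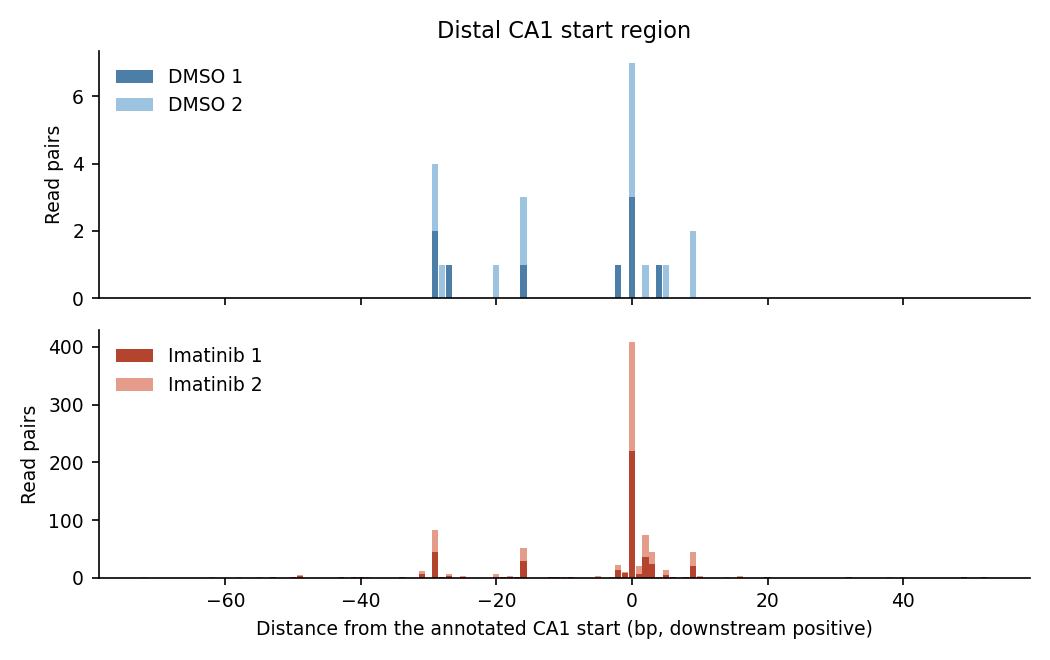
Read pairs by 5′ position around the annotated CA1 start (bp, downstream positive), stacked by library, DMSO above and imatinib below, on linear axes of different height. Both treatments used the positions 0, −16 and −29, with 7, 3 and 4 read pairs in DMSO.

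A transcript isoform (TIF) was a start cluster and an end cluster linked by at least 4 read pairs over all libraries. CA1 had 3 TIFs, which joined the 3 distal start clusters to the same end cluster (chr8:85328227-85328233). CA2 and CA3 had no TIF by this definition. In wider clusters, built from positions with at least 2 tags, CA3 had isoforms from 85438829 and 85438858 to the end at 85449036, seen 1, 0, 8 and 1 times and 0, 2, 10 and 3 times, and CA2 had 1, seen 7, 3, 1 and 2 times, all too rare for the test. The TIF from 85378113 was seen 3, 5, 297 and 281 times in DMSO 1, DMSO 2, imatinib 1 and imatinib 2, and was higher by 6.76 on the log2 scale (SE 0.501, adjusted p = 0.000844, edgeR quasi-likelihood test). The TIF from 85378142 was seen 2, 2, 44 and 37 times (log2 fold change 4.83, adjusted p = 0.00305). The TIF from 85378129 was seen 0, 2, 26 and 22 times (log2 fold change 5.00, adjusted p = 0.00616). The last value rests on the 2 molecules of DMSO 2, without which the DMSO count is 0 and the fitted log2 fold change, 7.75, depends on the prior count of the fit. All 3 CA1 TIFs were called higher, and 6.6% of the 15477 TIFs tested were. A start position needed 9 tags in DMSO 1 or 11 in DMSO 2 to count there, which no CA1 position reached. The 3 start clusters thus formed only through the imatinib libraries, so this count is not a result of its own.

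The 3′ ends of CA1 lay mainly at 1 site. Position 85328229 and its neighbours (chr8:85328217-85328236) took 9 of 11, 13 of 15, 471 of 496 and 421 of 431 read pairs. This is the annotated end of 2 CA1 transcripts and lies 621 bp upstream of the end of the MANE Select model in the last exon. No read pair ended within 20 bp of the MANE Select end at 85327608. The stretch of 50 nt before the main end held the poly(A) signal AATAAA, with its first base 22 nt upstream of the end, and AATAAA was present in the same window of 53.4% of the 30461 end clusters of all genes.

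A second CA1 end site lay 227 bp closer to the start, at 85328456 (chr8:85328450-85328459), within 20 bp of the annotated end of 1 transcript. It also had AATAAA 22 nt upstream, and 5 of the next 10 genomic bases were A. It took 2 of 11 read pairs in DMSO 1 (18.2%, 95% Wilson interval 5.14% to 47.7%), 2 of 15 in DMSO 2 (13.3%, 3.74% to 37.9%), 16 of 496 in imatinib 1 (3.23%, 2.00% to 5.18%) and 8 of 431 in imatinib 2 (1.86%, 0.943% to 3.62%). The shares were 15.8% ± 3.43 (SD, n = 2) in DMSO and 2.54% ± 0.968 (SD, n = 2) after imatinib, without overlap between the groups. The exact permutation p was again the smallest possible, 0.333. How many end sites of all genes separate in this way was not counted. In the clusters used for the tests the second CA1 site was too rare, so each gene had a single end cluster and its end use could not be tested. Wider clusters were built from all positions with at least 2 tags and chosen after seeing the data. There the second site had a natural-log fold change of −2.04 relative to all tested CA1 ends together (unadjusted p = 0.00654, adjusted p = 0.378, edgeR diffSpliceDGE). It was not called, and 0.0824% of all such end clusters were called. The absolute number of its molecules did not fall. In the same wider clusters the isoform from the distal starts to this site was seen 2, 2, 14 and 6 times. It was higher (log2 fold change 2.72, adjusted p = 0.0366, edgeR quasi-likelihood test, with 6.36% of all such isoforms called higher). This isoform passed the filter on low counts only through the imatinib libraries.

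**Figure D5:**
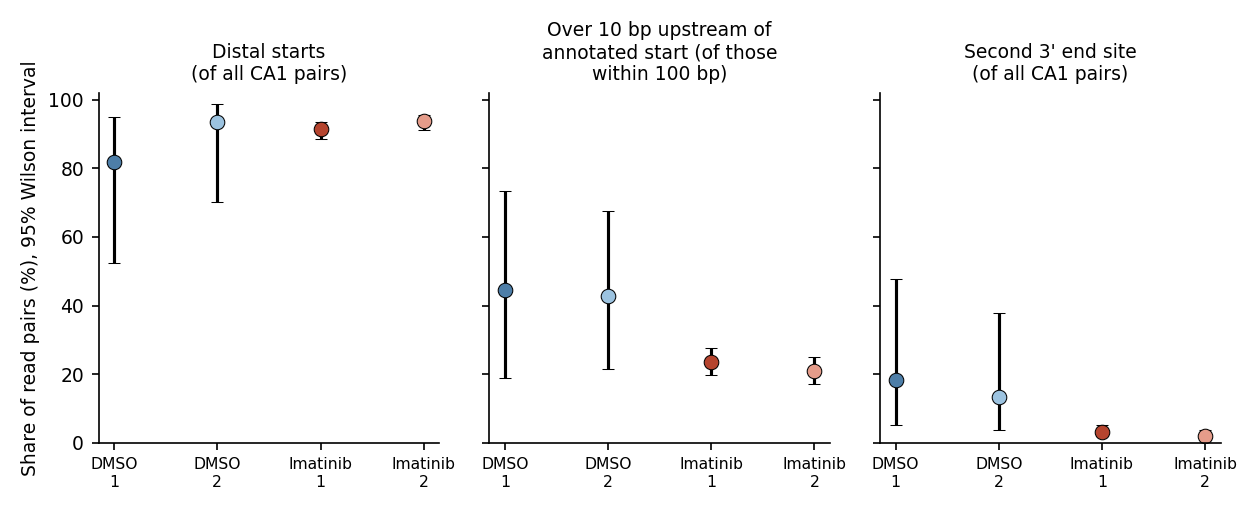
Share of CA1 read pairs (%) in each library with distal starts, with starts over 10 bp upstream of the annotated start among those within 100 bp of it, and with the second 3′ end site. Bars are 95% Wilson intervals, which cover counting error only. The distal share lay between 81.8% and 93.7%, while the other shares were higher in both DMSO libraries than in both imatinib libraries, with wide intervals from 9 to 15 DMSO read pairs.

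Another CA1 end lay inside the third intron, at 85337956, with AATAAA 19 nt upstream. It was seen in 6 read pairs, all from distal starts and all in imatinib 1, where they made up 1.21% of the CA1 read pairs (95% Wilson interval 0.556% to 2.61%). The other 5 CA1 ends had 1 read pair each, and 3 of them were followed by at least 7 A within 10 genomic bases, a sign of internal priming of the oligo(dT) primer. Distal starts reached the main end in 843 of 880 read pairs, and all 9 proximal read pairs ended there.

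CA3 read pairs formed 18 combinations. The commonest ran from 85438858 to 85449036 over 10179 bp and was seen 0, 2, 9 and 3 times. Starts lay in groups at 85438858, 1 bp from the annotated MANE Select start, with 1, 2, 14 and 6 read pairs, and at 85438829, 30 bp upstream of that start, with 1, 0, 8 and 3 read pairs. The upstream group thus made up 12 of the 39 read pairs. The remaining 4 read pairs comprised 1 start 48 bp upstream and 3 starts from 7325 to 10070 bp downstream, all 4 after imatinib. Ends lay at 85449036, 4 bp from the annotated end, in 34 read pairs and at 85448416 in 5. The former had AATAAA 16 nt upstream, and the latter had neither AATAAA nor ATTAAA within 50 nt and was followed by 7 A within 10 bases. With those 5 read pairs and all others of that kind left out, the log2 fold change of CA3 was 3.61 (adjusted p = 0.00742, edgeR quasi-likelihood test).

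CA2 read pairs formed 8 combinations, and 16 of the 18 started within 4 bp of the annotated start at 85464007. The commonest ran to 85481492, 1 bp from the annotated end, over 17486 bp and was seen 5, 1, 1 and 1 times. CA2 therefore used the same narrow start in all 4 libraries, with 7, 5, 2 and 2 read pairs. Of the 18 ends, 17 lay at the annotated end, with AATAAA 17 nt upstream.

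The stretches from 250 bp before to 50 bp after the most used start of each gene were searched on both strands for 4 motifs. TATAAA, the TATA box core, was found for CA2 alone, 32 bp upstream of the start on the strand of the gene, and in 6.79% of the 15953 start clusters of all genes. AGATAA, a form of the GATA factor motif, was found in none of the 3 stretches and in 8.12% of all clusters. CACCC, the core of motifs of KLF factors, was found for all 3 genes and in 61.3% of all clusters. CCAAT was found for CA3 alone, with 2 matches, and in 37.9% of all clusters. A match or its lack says only whether these letters occur in the stretch.

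Few molecules linked the 3 genes to other transcription units. For CA1, 5 read pairs started inside the gene and ended outside, and 2 ended inside and started outside. For CA2 and CA3 there were none of either kind. On the opposite strand, 1 read pair lay within CA3 and none within CA1 or CA2. That read pair, from imatinib 1, was the CA1 read pair that ended at 85374067, where the annotated bodies of CA1 and CA3 overlap. It was already counted for CA1. The antisense gene CA3-AS1 had 0, 0, 2 and 0 read pairs. Of the 14 other genes within 200 kb, 6 had read pairs and 3 were tested, and 0 were called by edgeR, with 0 at an unadjusted p under 0.05 and 0 called by DESeq2. These were RBIS, a ribosome biogenesis factor (log2 fold change −0.02, adjusted p = 0.969, edgeR), LRRCC1, a centrosome protein (0.46, adjusted p = 0.332, edgeR), and CA13 (−0.08, adjusted p = 0.928, edgeR). CA13, another cytosolic carbonic anhydrase, gave 10, 25, 20 and 6 read pairs. E2F5, a cell cycle transcription factor, gave 10, 8, 1 and 4 and was not tested.

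Among the 12 other carbonic anhydrases of the family, 5 had no read pair and 3 passed the filter, CA8, CA11 and CA13. None of the 3 was called by edgeR, with 0 at an unadjusted p under 0.05 and 0 called by DESeq2. Their median log2 fold change was −0.08, against 0.03 over all genes tested. CA8, which is expressed but lacks carbonic anhydrase activity, was the commonest, with 53.2, 54.0, 57.7 and 59.6 CPM (log2 fold change 0.13, adjusted p = 0.783, edgeR). CA9 and CA12, which face the outside of the cell and are known from tumours, had 0 and 3 read pairs over all libraries. In DMSO, CA8 was thus the most abundant family member, and after imatinib it was CA1.

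Genes that move bicarbonate and gases were measured beside the members. Of 14 bicarbonate transporters, 3 were tested and 1 was higher, against 8.69% of all genes tested. This was SLC4A1, the band 3 anion exchanger that trades bicarbonate for chloride across the red cell membrane. It gave 2, 4, 948 and 109 read pairs (log2 fold change 7.49, adjusted p = 0.00217, edgeR). Its imatinib libraries differed widely, with 210 CPM in imatinib 1 and 48.5 in imatinib 2, whereas CA1 was higher in imatinib 2. SLC4A2 and SLC26A6 were not called (−0.35 and 0.57). Of 5 further channel and exchanger genes, both that were tested were higher, against the same 8.69%. SLC4A1 and AQP1 passed the filter on low counts only with the imatinib libraries, so their being tested depended on being high there. AQP1, a water channel that also passes carbon dioxide, gave 2, 13, 126 and 106 read pairs (log2 fold change 4.44, adjusted p = 0.00276, edgeR). RHAG, the Rh-associated glycoprotein, gave 538, 590, 1418 and 815 (log2 fold change 1.33, adjusted p = 0.0147, edgeR).

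Markers of cell types were read to place these values. Of 12 erythroid genes, all tested, 11 were higher by edgeR and 10 by DESeq2, against 8.69% of all genes tested by edgeR. Among them HBA1, GYPB and EPB42 passed the filter on low counts only with the imatinib libraries. The 12 genes had a median log2 fold change of 2.15, and GATA1 was not called (−0.07). Their summed level was 7460 and 6156 CPM in the DMSO libraries and 20562 and 20744 in the imatinib libraries, and its part in the rise of CA1 and CA3 was not tested. CA1 had a larger fold change than the erythroid median, with EPB42 (6.29) above it and ALAS2 (3.90) and HBZ (2.33) below, a comparison for which no test was made. Colon markers KRT20 and CDX2 had no read pair, whereas EPCAM (−0.40) and VIL1 (1.31) were expressed and not called by edgeR or DESeq2, VIL1 having an unadjusted p of 0.0140. Of 4 skeletal muscle genes, none passed the filter, and the whole list summed to at most 0.663 CPM. The megakaryocyte list and the granulocyte and monocyte list had 1 tested gene each, ITGA2B and LYZ, and neither was called by edgeR or DESeq2 or had an unadjusted p under 0.05.

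Genes with the most similar profile were sought among 8026 genes with a mean of at least 10 CPM, by the root mean square difference in centred log2 CPM over the 4 libraries. A prior of 2 counts per library, scaled to library size, was added to each value before the log, which shrinks the change of genes as rare as CA3. For CA1 these were TUBB1 (0.442), MYT1 (0.566), FAIM2 (0.568), LINC02772 (0.617) and LXN (0.647). TUBB1, a beta-tubulin of megakaryocytes and platelets that was in none of the marker lists, was higher by 4.72 on the log2 scale (adjusted p = 0.000895, edgeR). It went from 4.04 and 3.08 to 79.2 and 108 CPM, and like CA1 it was higher in imatinib 2 than in imatinib 1. All genes named here were picked for likeness over the same 4 libraries. Their rise, its adjusted p and the order of the libraries therefore follow from that choice and are not separate results. For CA3 the most similar genes were LIPE-AS1 (0.0724), GYPE (0.0732), HBZ (0.0753), ENSG00000290123 (0.0932) and CALCOCO1 (0.0950). LIPE-AS1, a long noncoding RNA, went from 4.62 and 4.04 to 26.1 and 23.6 CPM. Because of the added counts, the CA3 values do not mean equal fold changes, since these 5 genes had log2 fold changes from 2.33 to 2.73 and CA3 had 3.36 in the test.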

How the data were processed

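Per the labels and the methods of the study, the authors trimmed reads with cutadapt 1.16, aligned both ends to hg38 with STAR 2.5.3a, kept unique alignments and removed duplicates by molecular identifier. The deposited values are raw counts of read pairs for each start and end position. The 3T-fill samples were not analysed here, and the PacBio models, which hold no values, were not used.

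Counts were summed per Gencode v44 gene with a window of 1 kb. Of the read pairs that fell within a gene, 10.7% fell within several genes and counted for each. Libraries of one group differed by more than sampling noise (chi-square per degree of freedom 9.38 for DMSO and 15.3 for imatinib). Genes were tested with edgeR 4.0.16 (TMM, filterByExpr, quasi-likelihood fit) and DESeq2 1.42.0 as an alternative, in R 4.3.3, and called at an adjusted p under 0.05. Clusters were built after the methods of the study, which do not state the reference power law, so they need not be the clusters of the study: ends with at least 7 A in the next 10 bases were left out, tags were normalized by a power law (alpha 1.25, chosen here), positions reaching 1 normalized count or more in any 2 libraries were merged up to 10 bp apart, and pairs had to span 300 bp to 2 Mb, giving 15953 start clusters and 33887 TIFs. The use of starts and ends was tested with diffSpliceDGE. Scripts were tested on simulated data.

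The named genes were the members with all their starts, ends and TIFs, the neighbours within 200 kb, the carbonic anhydrase and transport lists, the marker lists and the 5 genes most alike to each tested member. The members and lists were chosen with earlier results of these data known. Alternatives changed the tool, scaling, filters, window, distance limits, clusters and libraries. One marker list is not reported here.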

Additional observations from a re-analysis of the deposited data

How the results depend on the processing

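CA1 stayed higher and called in all 13 alternatives, and its log2 fold change ran from 5.15 to 5.99 when a library was left out. CA3 stayed higher in 12 alternatives and called in 11 of them. Its log2 fold change ran from 3.04 to 3.59 over the 3 fits that left out a library and still tested it; without DMSO 2 it was no longer called. The number of genes called, 1800, was 2736 without the filter on low counts, 1180 when the log2 fold change also had to exceed 1.5 either way, and 820 to 3955 when a library was left out (820 without DMSO 2, 1100 without DMSO 1 and 3955 without imatinib 2). The cause was not tested. In those fits the lone library of a group is assumed to vary like the other group. With the replicate block (the replicate number as a term) 1148 genes were called, and CA1 (log2 fold change 5.60) and CA3 (3.30) remained called. The labels do not say that a replicate number marks shared cultures, and deviations of same-numbered libraries correlated at −0.236, so the numbers were not treated as pairs. With the crossed pairing, added after seeing the data, 3723 genes were called. All 3 CA1 TIFs remained called in the 7 alternatives that used the same clusters, and no CA1 start was called in any. The difference in the share of distal starts ran from −0.800 to 10.7 points when a library was left out. Depth limits CA2, the CA3 isoforms and every share in DMSO, which rest on 13, 4 and 26 DMSO read pairs of CA2, CA3 and CA1.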
